A study of Mus musculus with 12 samples.

Results

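The genes described here code for proteins of the extracellular matrix and of basement membranes. They were chosen by name from the deposited table as every collagen, laminin, nidogen, thrombospondin and link protein gene, with tenascins C and R, fibronectin, agrin, perlecan, SPARC and its relative, biglycan, decorin, lumican and the lecticans versican, brevican, neurocan and aggrecan. This gave 79 of 23725 genes. RNA had been sequenced from the subventricular zone (SVZ) of mice, the tissue lining the lateral ventricles that holds neural stem cells, at 4 ages with 3 libraries each. All mice were male and wild type, with no allele or agent listed, and the strain C57BL/6 was named for the 2-month mice alone. The groups were 2, 6, 18 and 22 months of age. SVZs were taken out, broken up into single cells and lysed in Trizol, so the libraries are bulk RNA of dissociated cells and hold no matrix protein. Each age was labelled as a triplicate without saying whether separate animals were used, so p-values here reflect how far the libraries of an age scatter and may reflect technical scatter alone.

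Basement membranes are sheets of laminin and type IV collagen networks that nidogens and the heparan sulfate proteoglycans perlecan and agrin hold together. In the mouse SVZ they surround blood vessels and also form fractones, branched strands that contact stem cells and bind growth factors such as FGF2. The rest of the brain matrix is a loose web of hyaluronan to which lecticans are anchored by link proteins and which tenascins crosslink, while fibrillar collagen is largely confined to the meninges and large vessels.

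Values are normalised counts, that is, reads per gene divided by 1 size factor per library, and values after ± are SDs over the 3 libraries of an age. Libraries held 6381390 to 15962517 reads, of which the 79 matrix genes took 0.317% to 0.346%. A count of 0 allows up to 3 reads, which is 1.74 to 4.41 normalised counts, a limit for counting error only. Differences were tested with limma on log2(normalised count + 1) over the 15663 genes that reached 10 normalised counts in at least 3 libraries, 70 of them matrix genes, and a gene was called where its p-value, adjusted over all tested genes by the Benjamini-Hochberg method, was under 0.05. Folds of low genes are understated on this scale. The 22-month libraries stood apart from the other 9 in one respect that touches long genes: transcripts over 6000 nt took 20.4% to 20.9% of their reads and 22.8% to 25.5% of the reads of the others. Tested matrix genes had a median longest transcript of 5988 nt against 3422 nt over all tested genes, and 35 of 70 (50%) were over 6000 nt against 14.7% of all. Each comparison was therefore also fitted after a smooth trend with transcript length and GC content was taken out of each library, and those values stand beside the matrix genes whose calls they end.

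Per kilobase of longest transcript, the most abundant matrix genes of the 12 libraries were not basement membrane genes. Sparcl1, which codes for an astrocyte-secreted SPARC relative that promotes synapse formation, averaged 4139 normalised counts per kb, Sparc 1010, the lectican gene Bcan 828 and Col6a1, a beaded-filament collagen gene, 550. Ncan followed at 256, Agrn at 231, Hapln2 at 191 and Thbs4 at 102. The highest laminin gene was Lamb1 at 84.6 per kb and the highest type IV collagen gene was Col4a2 at 47.6. Type I collagen genes were low, with Col1a2 at 7.99 and Col1a1 at 3.50 per kb. The 9 genes under the filter were Col3a1, Col9a1, Col10a1, Col13a1, Col22a1, Col24a1, Col28a1, Lum and Hapln3. Col3a1, the partner of type I collagen in soft connective tissue, had 0.810 to 10.1 normalised counts over the 12 libraries, and Lum, the lumican gene, had 2.07 to 7.34.

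Most changes of matrix genes lay between 22 months and the earlier ages, and most were decreases. At 22 against 18 months 19 of 70 tested matrix genes were called (27.1%), where 18.9% of all tested genes were. Of these, 17 were lower (24.3% of the 70), where 10.2% of all tested genes were lower, and 2 were higher (2.86%), where 8.63% were. Their median log2 fold change was -0.22, against 0.02 over all tested genes. At 22 against 2 months 26 were called (37.1%), 21 lower (30%) and 5 higher (7.14%), with a median of -0.22. Over all tested genes 35.7% were called in that comparison, 17.2% lower and 18.4% higher, with a median of 0.02. With both older ages set against both younger ages 17 matrix genes were called (24.3%), 12 lower (17.1%) and 5 higher (7.14%). Over all tested genes 23.9% were called there, 12.1% lower and 11.8% higher. Any difference among the 4 ages, by the moderated F test, was called for 31 matrix genes (44.3%) beside 31.5% of all tested genes. These comparisons share the 22-month libraries and are not independent of each other. Without those libraries, in a fit added after the data were seen that sets 18 months against both younger ages, 6 matrix genes were called: Tnc, Thbs4 and Ncan lower and Col6a3, Hapln2 and Col2a1 higher. Over all tested genes 3.31% were called there, 1.63% lower and 1.69% higher. Of the 17 older against younger calls 13 ended in that fit of fewer libraries, with log2 differences that ranged from near the full fit's, as in Lamb3 (0.58, adjusted p = 0.1, against 0.68) and Col17a1 (0.38, adjusted p = 0.225, against 0.43), to 0.061 in Lama2 (against -0.25).

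Most of the matrix genes called lower have long transcripts. Among transcripts over 6000 nt, 13 of 35 matrix genes (37.1%) and 923 of 2183 tested genes in all (42.3%) were lower at 22 against 18 months, with medians of -0.34 and -0.22. Between 3000 and 6000 nt, 3 of 29 matrix genes (10.3%) and 494 of 6568 tested genes (7.52%) were lower. At 22 against 2 months the counts over 6000 nt were 15 of 35 (42.9%) and 1281 of 2183 (58.7%), with medians of -0.36 and -0.29. In both comparisons long matrix genes were thus called lower less often than long genes in all. The shares by role given below stand beside tested genes of every length. Once length and GC trends were taken out, 8 matrix genes were lower and 2 higher at 22 against 18 months, with a median of -0.075, and 11 were lower and 7 higher at 22 against 2 months, with a median of -0.046. Shares over all genes of that fit were smaller as well, with 4.59% lower and 6.48% higher at 22 against 18 months and 9.49% lower and 13.1% higher at 22 against 2 months. The older against younger comparison then gave 8 lower and 6 higher, beside 7.42% and 8.68% of all genes. Single libraries moved the counts of matrix genes and of all genes. Without 18 months replicate 1 the 19 calls of 22 against 18 months became 12 of 70, beside 12.2% of all tested genes, and without 18 months replicate 3 they became 11 of 70, beside 7.56%. Without 18 months replicate 2 they rose to 20 lower and 2 higher, beside 21.2%. Transcripts over 6000 nt took 24.5%, 23.0% and 25.3% of the reads of 18 months replicates 1, 2 and 3. Whether this bears on the counts was not tested.

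**Figure D1:**
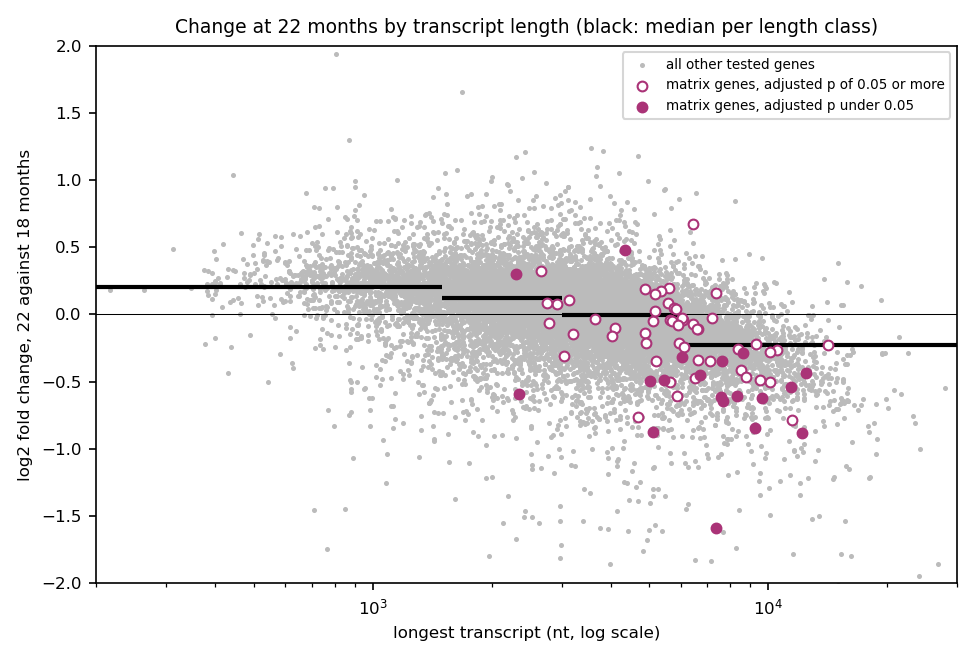
Log2 fold change at 22 against 18 months (vertical) against the length of the longest transcript in nt (horizontal, log scale) for all tested genes (grey) and tested matrix genes (purple, filled where the adjusted p was under 0.05), with black bars at the median of each length class; 10 grey genes lie outside the axis. The medians fall with length, and 35 of the 70 matrix genes lie in the class over 6000 nt, whose median over all tested genes was -0.22.

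Few matrix genes were called between neighbouring ages up to 18 months. More were called where 18 months was set against both younger ages without the 22-month libraries, as given above. There 3 of 70 were lower and 3 higher, beside 1.63% and 1.69% of all tested genes. At 6 against 2 months 2 of 70 were called, Hspg2 higher and Tnc lower, where 0.926% of all tested genes were. Neither call was held by every library: leaving out some single libraries ended each, as given with those genes. At 18 against 6 months 0 of 70 were called, where 0.153% of all tested genes were; 14 of 70 had an unadjusted p under 0.05 against 9.19% of all tested genes. Thbs4 was the gene nearest to a call, and edgeR's quasi-likelihood test and DESeq2 on the recovered reads each called 1 matrix gene, Thbs4.

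**Figure D2:**
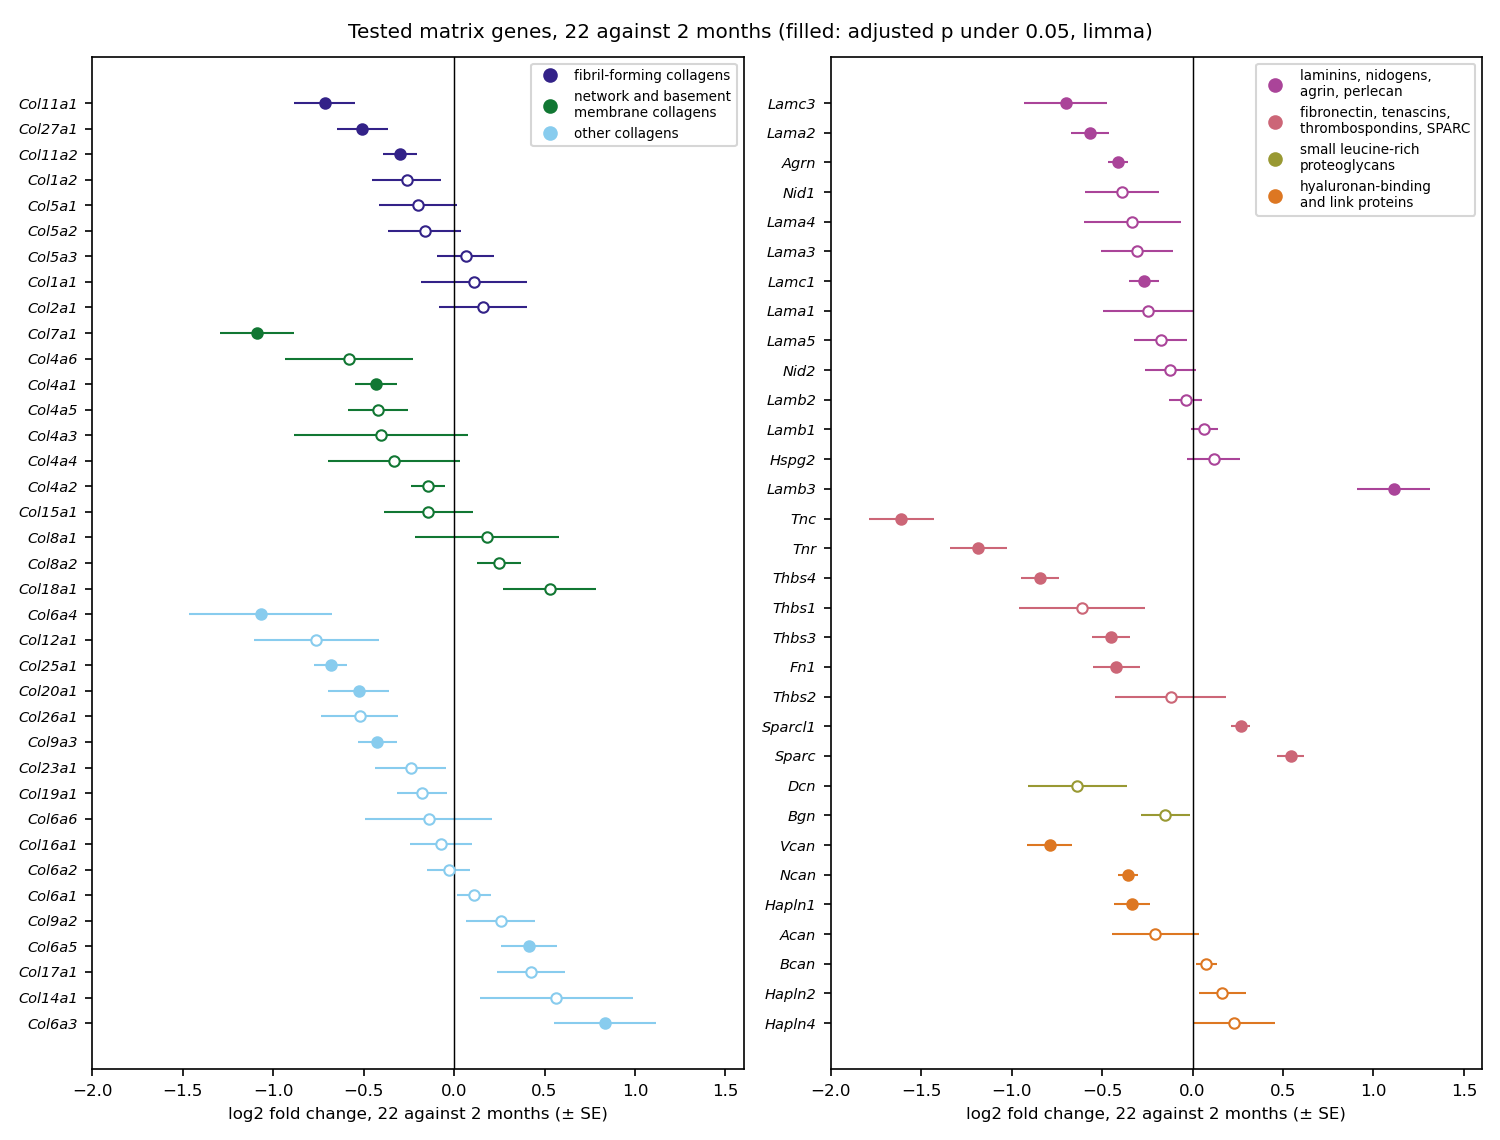
Log2 fold change of the tested matrix genes at 22 against 2 months (horizontal, ± SE) by role (colour), filled where the adjusted p was under 0.05, with a gene that is not reported left out. The 21 filled genes left of 0 include Tnc at -1.61 and Tnr at -1.18, and the 5 on the right are Lamb3, Col6a3, Sparc, Col6a5 and Sparcl1.

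Among the 9 adhesive glycoproteins and SPARC proteins, 5 fell (55.6%) and 2 rose (22.2%) between 2 and 22 months, beside 17.2% lower and 18.4% higher over all tested genes. Tnc, which codes for tenascin C, a glycoprotein of the germinal zone matrix, had 86.8, 74.3 and 106 at 2 months, 55, 39.5 and 45.7 at 6 months, 37.4, 31.6 and 39.5 at 18 months and 31.3, 26.4 and 26.9 at 22 months. Every 2-month library was above every later library, and the 22-month libraries were below all the others. Tnc fell by 1.61 ± 0.18 (SE) on the log2 scale between 2 and 22 months (adjusted p = 1.42e-05). It fell by 0.91 ± 0.18 between 2 and 6 months (adjusted p = 0.0229), and this call was lost without 2-month library 1 (0.0972), 2-month library 3 (0.0803), 6-month library 2 (0.102) or 6-month library 3 (0.0824), with the adjusted p of each such fit in brackets here and for the genes that follow. The log2 difference from 6 to 18 months was -0.35 (adjusted p = 0.572) and from 18 to 22 months -0.34 (adjusted p = 0.195). Removing length and GC trends left the 2 to 22 month difference of Tnc at -1.39 (adjusted p = 0.00011).

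Thbs4 codes for thrombospondin 4, which SVZ astrocytes of the mouse secrete. Its counts were 384, 479.6 and 426 at 2 months, 383, 394 and 356 at 6 months, 260.3, 244 and 287 at 18 months and 215, 276 and 227 at 22 months. All 6 libraries of the older ages were below all 6 of the younger ages, while 2 overlapped 6 months and 18 overlapped 22 months. The older against younger log2 difference was -0.68 ± 0.07 (SE, adjusted p = 1.82e-05), and that between 22 and 2 months was -0.84 ± 0.10 (SE, adjusted p = 2.68e-05). The step from 6 to 18 months was -0.52 ± 0.10 (SE, adjusted p = 0.0577) in limma, with adjusted p = 0.0395 in edgeR, 0.00328 in DESeq2 and 0.0287 with length and GC trends removed. Its longest transcript is 3198 nt, and removing the trends left its difference between 22 and 2 months at -0.93.

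Tenascin R, the product of Tnr, is made by oligodendrocyte lineage cells and some neurons and crosslinks lecticans. Tnr had 626, 663 and 462 at 2 months, 341, 517 and 484 at 6 months, 487, 374 and 557 at 18 months and 244, 259 and 258 at 22 months. The 22-month libraries lay below every other library, and the 3 earlier ages overlapped. Tnr fell by 0.88 ± 0.16 (SE) between 18 and 22 months (adjusted p = 0.0015) and by 1.18 ± 0.16 between 2 and 22 months (adjusted p = 5.26e-05). Its longest transcript is 12202 nt, and with length and GC trends removed these differences were -0.49 (adjusted p = 0.00733) and -0.72 (adjusted p = 0.000165). Thbs3, another thrombospondin gene, went from 314 ± 35.5 at 2 months to 228 ± 6.71 at 22 months, a log2 difference of -0.45 ± 0.11 (SE, adjusted p = 0.00369). It shares up to 179 exonic bases with Mtx1 on the opposite strand, and since it is not stated that reads were counted by strand, the reads of the pair cannot be told apart there. Its older against younger call (-0.26, adjusted p = 0.0197) was lost without 6-month library 3 (0.0531). Thbs1 and Thbs2, at 2.69 and 2.40 normalised counts per kb, were not called in any comparison.

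Sparc, which codes for a collagen-binding protein that astrocytes, microglia and vessels secrete, had 1978, 1930.3 and 2075 at 2 months, 2236, 1857 and 1978 at 6 months, 2285, 2147 and 2665 at 18 months and 2836, 2901 and 2978 at 22 months. The 22-month libraries were above all 9 others. Sparc rose by 0.54 ± 0.07 (SE) between 2 and 22 months (adjusted p = 7.31e-05) and by 0.30 ± 0.07 between 18 and 22 months (adjusted p = 0.0109). After removal of length and GC trends the first was 0.38 (adjusted p = 0.00082) and the second 0.21 (adjusted p = 0.0586). Its longest transcript, of 2300 nt, is the shortest among the tested matrix genes. Sparcl1 had 10343, 10312 and 10659.5 at 2 months, 11689.8, 10387 and 10436 at 6 months, 11888, 11504 and 12170.3 at 18 months and 12081, 12798 and 12779.6 at 22 months. All 22-month libraries were above all 2-month and 6-month libraries, and the log2 difference between 22 and 2 months was 0.27 ± 0.05 (SE, adjusted p = 0.00108).

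The 250 bases before a transcription start that RefSeq lists are shown for 3 genes that fell (Tnc, Thbs4 and Ncan) and 1 that rose (Sparc), whose calls at 22 against 2 months were kept under every alternative fit that holds both ages, on GRCm38.p6 and read along the gene, which is on the minus strand in each case. Capitals mark matches, on either strand, to 5 motifs: the TATA box motif TATAAA, the motif GGGCGG that Sp1 family factors bind, the motif CCAAT that NF-Y factors bind, the AP-1 motif TGANTCA and the E-box motif CACGTG. No matches overlap each other here. The genes lie on chromosome 4 from 63959785 to 64047015 (Tnc), chromosome 13 from 92751586 to 92794818 (Thbs4), chromosome 8 from 70093085 to 70120863 (Ncan) and chromosome 11 from 55394159 to 55420080 (Sparc), so that the listed Ncan start lies inside the gene's widest bounds. RefSeq windows were given for 57 of the 79 genes.
Tnc, chr4:64047016-64047265: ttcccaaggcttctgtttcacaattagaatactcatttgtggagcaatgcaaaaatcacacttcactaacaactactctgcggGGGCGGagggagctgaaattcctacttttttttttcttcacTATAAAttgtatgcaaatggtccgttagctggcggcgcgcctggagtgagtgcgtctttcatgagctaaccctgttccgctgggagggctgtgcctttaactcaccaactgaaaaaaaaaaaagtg
Thbs4, chr13:92794819-92795068: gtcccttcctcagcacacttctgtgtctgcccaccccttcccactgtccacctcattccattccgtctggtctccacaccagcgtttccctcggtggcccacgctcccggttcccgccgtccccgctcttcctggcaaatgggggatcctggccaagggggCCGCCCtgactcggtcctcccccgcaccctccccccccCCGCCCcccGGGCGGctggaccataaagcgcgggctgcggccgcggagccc
Ncan, chr8:70120845-70121094: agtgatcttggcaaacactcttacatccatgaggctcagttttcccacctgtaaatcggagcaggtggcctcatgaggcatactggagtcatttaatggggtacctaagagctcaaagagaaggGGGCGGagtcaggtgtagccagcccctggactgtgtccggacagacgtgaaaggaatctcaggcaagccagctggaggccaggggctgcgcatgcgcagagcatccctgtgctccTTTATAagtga
Sparc, chr11:55420081-55420330: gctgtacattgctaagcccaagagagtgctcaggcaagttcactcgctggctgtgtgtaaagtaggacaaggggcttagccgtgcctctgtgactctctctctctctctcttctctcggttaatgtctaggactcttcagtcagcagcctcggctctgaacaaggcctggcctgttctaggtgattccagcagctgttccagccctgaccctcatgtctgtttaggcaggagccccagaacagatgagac
The Tnc window, before the first of 2 listed starts, held 1 TATA match that began 126 bases before the start and 1 GC box match at 167 bases. In Thbs4 there were 3 GC box matches, at 89, 51 and 42 bases. Ncan had a TATA match at 11 bases, on the strand opposite to the one printed (TTTATA as shown), and a GC box match at 126. The Sparc window held no match to the 5 motifs. Over all 32851 RefSeq mouse windows of 250 bases, 12.4% held a TATAAA match, 32.7% GGGCGG, 33.8% CCAAT, 6.75% TGANTCA and 6.02% CACGTG.

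**Figure D3:**
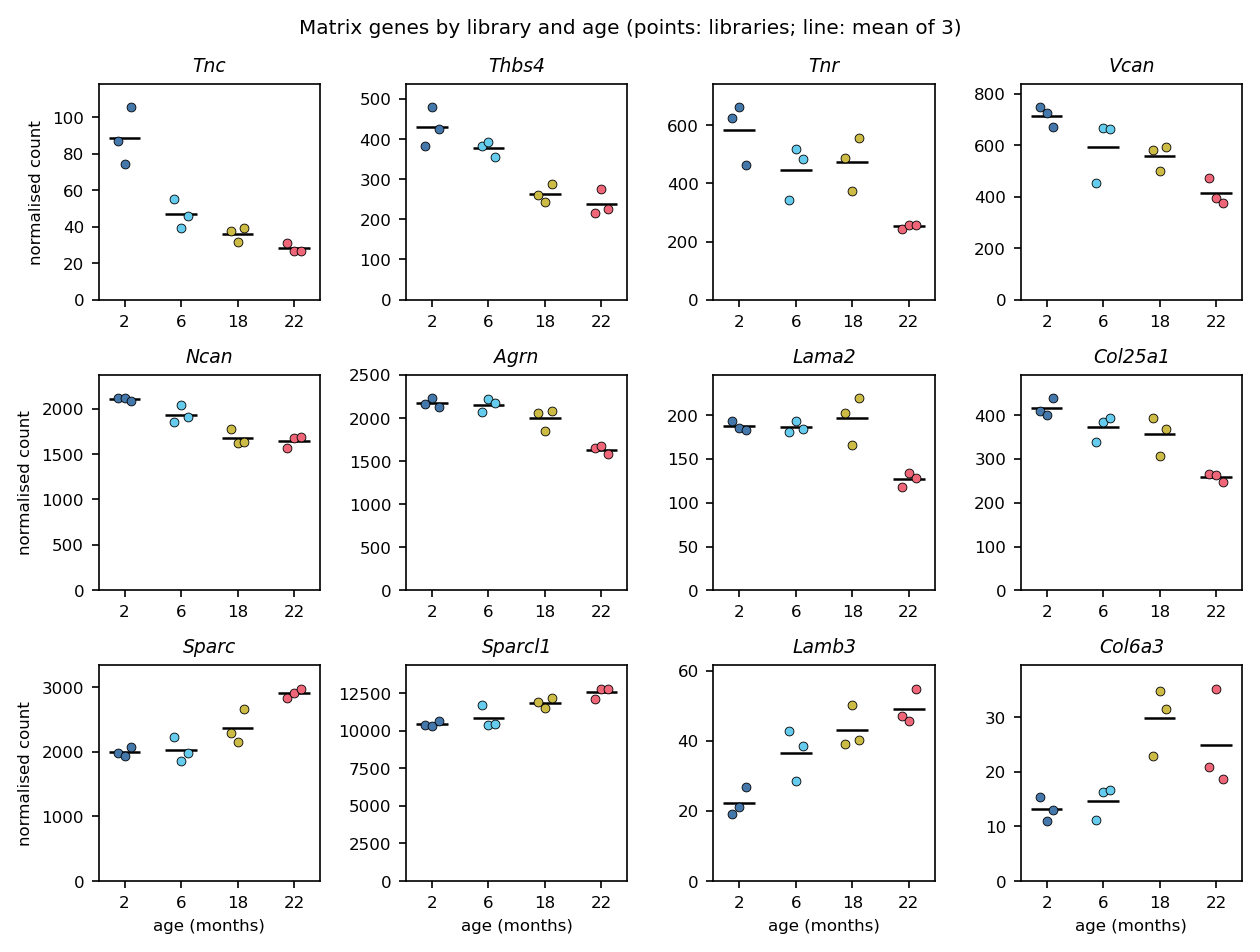
Normalised counts (vertical, from 0) of 12 matrix genes in each library (points) at 4 ages in months (horizontal), with a line at the mean of the 3 libraries. Tnc is highest in the 2-month libraries, Thbs4 and Ncan are lower in all 6 libraries of the older ages, Tnr, Agrn, Lama2 and Col25a1 are lowest in the 22-month libraries, and Sparc, Sparcl1, Lamb3 and Col6a3 are higher in every 22-month than in every 2-month library.

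Of the 7 tested hyaluronan-binding proteoglycans and link proteins, 3 fell between 2 and 22 months (42.9%, beside 17.2% of all tested genes) and 0 rose. Ncan codes for neurocan, a lectican of the nervous system. Its counts were 2119, 2117 and 2080.0 at 2 months, 1853, 2038 and 1906 at 6 months, 1775, 1626 and 1632 at 18 months and 1564, 1672 and 1691 at 22 months. Every 6-month library was below every 2-month library, every 18-month library was below every 6-month library, and 18 and 22 months overlapped. The older against younger log2 difference was -0.28 ± 0.04 (SE, adjusted p = 0.00015). Without the 22-month libraries it was -0.27 (adjusted p = 0.00618), and the difference between 22 and 2 months was -0.36 ± 0.05 (SE, adjusted p = 0.000154). The difference between 22 and 18 months was -0.03 (adjusted p = 0.741), and it turned to 0.17 (adjusted p = 0.0286) once length and GC trends were removed.

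Vcan, which codes for versican and is known in brain from oligodendrocyte precursors and progenitors, had 748, 724 and 670.3 at 2 months, 451, 668 and 661 at 6 months, 582, 500.0 and 593 at 18 months and 473, 394 and 376 at 22 months. All 2-month libraries were above all others. Vcan fell by 0.79 ± 0.12 (SE) between 2 and 22 months (adjusted p = 0.000188), and with length and GC trends removed by 0.28 (adjusted p = 0.019). It fell by 0.43 between 18 and 22 months (adjusted p = 0.023), a call lost without 18-month library 1 (0.0747), 18-month library 3 (0.104), 22-month library 2 (0.0769) or 22-month library 3 (0.0974), and with the trends removed the difference was -0.03 (adjusted p = 0.853). Hapln1, a link protein gene, went from 221 ± 4.48 at 2 months to 176 ± 22.2 at 22 months (-0.34, adjusted p = 0.0154). That call was lost without 2-month library 2 (0.0517), 22-month library 2 (0.0749) or 22-month library 3 (0.055), and with the trends removed the difference was -0.10 (adjusted p = 0.471). Bcan, the most abundant lectican gene, was not called in any comparison, with log2 differences from -0.13 at 18 against 6 months to 0.11 at 22 against 18 months. Acan, the aggrecan gene of perineuronal nets, stood at 38.4 ± 7.20 at 2 months and 33.5 ± 8.92 at 22 months (adjusted p = 0.533).

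Hapln2 codes for a link protein found at the nodes of myelinated axons. It had 347, 350.3 and 309 at 2 months, 563, 429 and 491 at 6 months, 452, 635 and 637 at 18 months and 322, 432 and 381 at 22 months. All 6-month and 18-month libraries were above all 2-month libraries, and all 22-month libraries were below all 18-month ones. It fell by 0.60 ± 0.13 (SE) between 18 and 22 months (adjusted p = 0.00545), and with length and GC trends removed by 0.70 (adjusted p = 0.00195). Its level at 6 against 2 months differed by 0.55 (adjusted p = 0.0539 in limma and 0.00575 in DESeq2). Of 8 oligodendrocyte marker genes, 6 were also lower at 22 against 18 months (75%, beside 10.2% of all tested genes). The summed level of the 8 was 88854 to 117997 at 18 months and 66588 to 86757 at 22 months. The part of these cells in the Hapln2 and Tnr values was not tested. In bulk RNA, fewer cells of a type and less RNA per cell cannot be told apart.

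**Figure D4:**
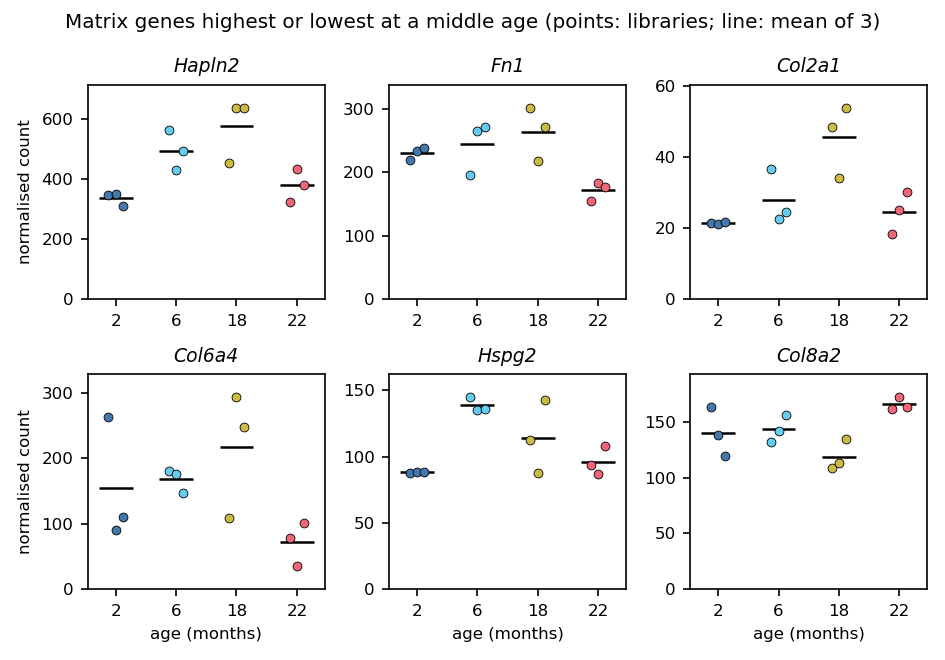
Normalised counts (vertical, from 0) of 6 matrix genes in each library (points) at 4 ages in months (horizontal), with a line at the mean of the 3 libraries. Hapln2, Fn1, Col2a1 and Col6a4 have their highest mean at 18 months and Hspg2 at 6 months, while Col8a2 has its lowest mean at 18 months.

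Fibronectin, the product of Fn1, links collagens to integrins on cells. Fn1 had 219, 233 and 238 at 2 months, 196, 265 and 271 at 6 months, 302, 217 and 271 at 18 months and 155, 184 and 176 at 22 months. The 22-month libraries were below every other library, and Fn1 fell by 0.61 ± 0.13 (SE) between 18 and 22 months (adjusted p = 0.00473). Free of length and GC trends, that difference was -0.35 (adjusted p = 0.0403). Between 2 and 22 months it was -0.42 (adjusted p = 0.018), a call lost without 2-month library 2 (0.0535), 2-month library 3 (0.0518) or 22-month library 1 (0.0665). With the trends removed the latter was -0.15 (adjusted p = 0.343).

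Among the 15 laminin, nidogen, agrin and perlecan genes, all tested, 4 fell (26.7%) and 1 rose (6.67%) between 2 and 22 months, where 17.2% of all tested genes were lower and 18.4% higher. Agrn, which codes for the heparan sulfate proteoglycan agrin, had 2161, 2235 and 2127 at 2 months, 2071, 2225 and 2175 at 6 months, 2064, 1850.2 and 2077 at 18 months and 1652, 1673 and 1577 at 22 months. The 22-month libraries were the 3 lowest of the 12. Agrn fell by 0.41 ± 0.06 (SE) between 2 and 22 months (adjusted p = 5.73e-05) and by 0.29 ± 0.06 between 18 and 22 months (adjusted p = 0.00244). With length and GC trends removed the first difference was -0.15 (adjusted p = 0.0366) and the second -0.03 (adjusted p = 0.755).

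Lama2, the gene of the laminin alpha 2 chain found around brain vessels, had 194, 185 and 183 at 2 months, 180.4, 193 and 184 at 6 months, 202, 166 and 219.6 at 18 months and 117, 134 and 128 at 22 months. Here too all 22-month libraries were below all others. Lama2 fell by 0.62 ± 0.10 (SE) between 18 and 22 months (adjusted p = 0.00109) and, with the trends removed, by 0.31 (adjusted p = 0.0363). Between 2 and 22 months it fell by 0.57 (adjusted p = 0.000667), and with the trends removed the difference was -0.19 (adjusted p = 0.148). Its older against younger call (-0.25, adjusted p = 0.0225) was lost without 2-month library 1 (0.0509), 6-month library 2 (0.0592) or 18-month library 2 (0.0619), with the trends removed it was -0.06 (adjusted p = 0.567), and without the 22-month libraries the difference was 0.06 (adjusted p = 0.782).

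Lamb3, known from the laminin of epithelia such as skin, was the laminin gene that rose. It had 19, 21.1 and 26.9 at 2 months, 42.8, 28.4 and 38.7 at 6 months, 39.1, 50.2 and 40.2 at 18 months and 46.9, 45.5 and 54.9 at 22 months. Every later library was above all 2-month libraries. The log2 difference between 22 and 2 months was 1.11 ± 0.20 (SE, adjusted p = 0.000585), and with length and GC trends removed it was 1.15.

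Lamc1 codes for the gamma 1 chain that most laminins contain. Its mean was 452 ± 49.3, 459 ± 29.3, 475 ± 14.1 and 374 ± 25.2 in order of age. It fell by 0.35 between 18 and 22 months (adjusted p = 0.00936), and by 0.27 between 2 and 22 months (adjusted p = 0.0186). The latter call was lost without 2-month library 1 (0.0696), 2-month library 2 (0.103), 22-month library 1 (0.0588) or 22-month library 3 (0.0626). Taking out length and GC trends gave differences of -0.12 (adjusted p = 0.28) and -0.02 (adjusted p = 0.85). Lamc3, the gamma 3 chain gene, had 26.1, 26.4 and 24.9 at 22 months, below all other libraries, which held 29.2 to 61.1. Its difference between 22 and 2 months was -0.70 (adjusted p = 0.0251), lost without 2-month library 1 (0.131), 22-month library 2 (0.051) or 22-month library 3 (0.0651). Lama5, a chain of vessel laminin, fell by 0.54 between 18 and 22 months (adjusted p = 0.0188), lost without 18-month library 1 (0.0787), 18-month library 3 (0.111) or 22-month library 1 (0.0714) and at -0.19 (adjusted p = 0.335) with the trends removed. Lamc3 was also called in older against younger ages (-0.51, adjusted p = 0.031), a call lost without 2-month library 1 (0.0861), 6-month library 1 (0.0644), 6-month library 2 (0.0752), 18-month library 2 (0.0866) or 22-month library 3 (0.0582). With the trends removed the differences of Lamc3 were -0.60 (adjusted p = 0.0571) at 22 against 2 months and -0.44 (adjusted p = 0.0633) in older against younger ages. Lamb1, Lamb2, Lama1, Lama3, Lama4, Nid1 and Nid2 were not called in the limma fit of all 12 libraries. Lamb1 was called at 22 against 2 months with the trends removed (0.20, adjusted p = 0.0479). Nid1, one of the nidogen genes whose products bridge laminin and type IV collagen, had 55.9, 106 and 93.8 at 2 months and 61.3, 60.2 and 66.3 at 22 months, a log2 difference of -0.39 (adjusted p = 0.143). Without 2 months replicate 1, its low library of that age, Nid1 was called at 22 against 2 months (-0.67, adjusted p = 0.0105), in older against younger ages (-0.39, adjusted p = 0.0301) and by the F test (adjusted p = 0.0343).

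Hspg2 codes for perlecan, the fractone proteoglycan that binds FGF2. It had 87.9, 88 and 88.4 at 2 months, 145, 135 and 136 at 6 months, 112, 87.5 and 143 at 18 months and 93.9, 86.7 and 108 at 22 months. The 2-month libraries differed by less than 1 normalised count and all 6-month libraries were above them, while 18 months overlapped both. Hspg2 rose by 0.65 ± 0.15 (SE) between 2 and 6 months (adjusted p = 0.0449). This call was lost without 2-month library 1 (0.151), 2-month library 2 (0.142), 2-month library 3 (0.0819), 6-month library 1 (0.148), 6-month library 2 (0.102), 6-month library 3 (0.103), 18-month library 1 (0.0552) or 22-month library 3 (0.0535). It was also lost with length and GC trends removed (0.58, adjusted p = 0.0556). At 22 against 2 months the difference was 0.12 (adjusted p = 0.563), and with the trends removed 0.54 (adjusted p = 0.00848). Its longest transcript, of 14187 nt, is the longest among the tested matrix genes.

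Of the 11 tested network and basement membrane collagens, 2 fell between 2 and 22 months and 0 rose, a share of 18.2% lower that is near the 17.2% of all tested genes. Col4a1 and Col4a2 code for the chains of the main type IV collagen of vessel basement membranes. Col4a1 had 229, 248 and 234 at 2 months, 227, 205 and 225 at 6 months, 215, 182 and 174 at 18 months and 201, 145 and 184 at 22 months. All 2-month libraries were above all others, and the log2 difference between 22 and 2 months was -0.43 ± 0.11 (SE, adjusted p = 0.00761). Its value after removal of length and GC trends was -0.28 (adjusted p = 0.124). The older against younger call of Col4a1 (-0.32, adjusted p = 0.00966) was also lost with the trends removed (-0.22, adjusted p = 0.105). Col4a2 had 311, 330.1 and 303 at 2 months, 318, 324 and 337 at 6 months, 333, 266 and 301 at 18 months and 259, 323 and 274 at 22 months, its ages overlapped, and it was not called in any comparison (-0.14 at 22 against 2 months, adjusted p = 0.247). The pair shares up to 22 exonic bases on opposite strands, over which their reads cannot be told apart. Col7a1, the anchoring fibril collagen gene of skin, had 48.7, 38.5 and 35.6 at 2 months and 16.9, 19.1 and 19.7 at 22 months, and its 22-month libraries were below the other 9. It holds 36 exonic bases of Mir711 on the same strand, whose reads cannot be told apart from its own. It fell by 1.09 ± 0.20 (SE) between 2 and 22 months (adjusted p = 0.000742). The fall of 0.84 between 18 and 22 months (adjusted p = 0.00988) was lost without 18-month library 1 (0.0573), and with the trends removed it was -0.56 (adjusted p = 0.0723). The older against younger call of Col7a1 (-0.57, adjusted p = 0.00992) was also lost with the trends removed (-0.40, adjusted p = 0.0554).

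Col8a2, a short-chain collagen gene best known from the cornea, rose between 18 and 22 months. It had 163, 138 and 119.6 at 2 months, 131, 142 and 156 at 6 months, 109, 113 and 134 at 18 months and 162, 172 and 164 at 22 months. The 22-month libraries were above all 18-month libraries, and the log2 difference was 0.48 ± 0.12 (SE, adjusted p = 0.0122). This call was lost without 18-month library 1 (0.054). Col18a1, the source of the angiogenesis inhibitor endostatin, stood at 24.9 ± 7.04 at 2 months and 36.7 ± 10.6 at 22 months, and its difference of 0.53 was not called (adjusted p = 0.119). Without 22 months replicate 2 it was 0.78 (adjusted p = 0.0339). Col4a3, Col4a4, Col4a5, Col4a6, Col8a1 and Col15a1 were not called in the limma fit of all 12 libraries. Without 22 months replicate 1, Col4a6 was called at 22 against 2 months (-0.97, adjusted p = 0.0377, against -0.58), and Col4a5 at 22 against 18 months (-0.61, adjusted p = 0.0223), at 22 against 2 months (-0.56, adjusted p = 0.0188) and by the F test (adjusted p = 0.0453). Col4a5 was also called at 22 against 2 months without 2 months replicate 1 (-0.52, adjusted p = 0.0435).

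Of the 9 tested fibril-forming collagens, 3 fell between 2 and 22 months (33.3%, beside 17.2% of all tested genes) and 0 rose. Col11a1, Col11a2 and Col27a1 code for collagens that start or space fibrils, and for each of them the 22-month libraries were the 3 lowest of the 12. Col11a1 went from 66 ± 4.33 to 40.2 ± 7.43 between 2 and 22 months (-0.72, adjusted p = 0.00356). Col11a2 went from 272 ± 31.6 to 219.8 ± 2.12 (-0.30, adjusted p = 0.0199), a call lost without 2-month library 2 (0.119) or 22-month library 3 (0.0542). Col27a1 went from 104 ± 17.7 to 72.1 ± 6.35 (-0.51, adjusted p = 0.00933), lost without 2-month library 3 (0.0536). Once length and GC trends were taken out none of the 3 passed, with differences of -0.43 (adjusted p = 0.0666), -0.21 (0.144) and -0.30 (0.125). All 3 were also lower at 22 against 18 months, by 0.64, 0.32 and 0.61 (adjusted p = 0.0145, 0.0268 and 0.00664). The Col11a1 call was lost without 18-month library 3 (0.101) or 22-month library 3 (0.0649), and the Col11a2 call without 18-month library 1 (0.0885), 18-month library 3 (0.0666), 22-month library 2 (0.0631) or 22-month library 3 (0.073). With the trends removed the adjusted p of these differences were 0.113, 0.256 and 0.0758.

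Col2a1, the main collagen gene of cartilage, had 21.4, 21.1 and 21.6 at 2 months, 36.7, 22.6 and 24.6 at 6 months, 48.5, 34 and 53.8 at 18 months and 18.3, 25 and 30.0 at 22 months. It fell by 0.87 ± 0.24 (SE) between 18 and 22 months (adjusted p = 0.0203), a call lost without 18-month library 1 (0.0712), 18-month library 3 (0.115) or 22-month library 1 (0.072). At 18 against 6 months its difference was 0.69 (adjusted p = 0.353). In the fit without the 22-month libraries, 18 months stood 0.86 above both younger ages (adjusted p = 0.0274). Type I collagen genes were not called in any comparison. Col1a1 was 19 ± 3.75 at 2 months and 21.6 ± 8.53 at 22 months, and Col1a2 was 50.7 ± 4.63 and 42.2 ± 4.24. The small leucine-rich proteoglycans bind collagen fibrils. Bgn, the biglycan gene, was called by the F test alone (adjusted p = 0.0303), with means of 112 ± 14.6, 82.6 ± 9.41, 80.1 ± 8.65 and 100.1 ± 7.58 in order of age. Dcn, the decorin gene, had 42.5, 40.5 and 40.9 at 18 months and 35.2, 16.2 and 23.8 at 22 months, and was not called (-0.77, adjusted p = 0.0597). Without 22 months replicate 1 its difference was -1.04 (adjusted p = 0.0167), without 6 months replicate 1 the adjusted p was 0.0389, and without 6 months replicate 3 it was 0.0425. At 22 against 2 months Dcn was called without 22 months replicate 1 (-0.91, adjusted p = 0.0173).

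The other 17 tested collagens, with interrupted helices, beaded filaments or membrane anchors, moved in both directions between 2 and 22 months, with 4 lower (23.5%) and 2 higher (11.8%) beside 17.2% and 18.4% of all tested genes. Col25a1 codes for a neuronal membrane collagen that is found in amyloid plaques. It had 409, 401 and 439.7 at 2 months, 339, 384 and 394 at 6 months, 393, 307 and 369.6 at 18 months and 266, 263 and 249 at 22 months. The 22-month libraries were below all others, and Col25a1 fell by 0.68 ± 0.09 (SE) between 2 and 22 months (adjusted p = 5.56e-05) and by 0.45 ± 0.09 between 18 and 22 months (adjusted p = 0.00326). With length and GC trends removed the differences were -0.44 (adjusted p = 0.000946) and -0.26 (adjusted p = 0.0433). Col9a3, a type IX chain gene, went from 133 ± 14.5 at 2 months to 98.7 ± 5.60 at 22 months (-0.42, adjusted p = 0.00689). It shares up to 234 exonic bases with Tcfl5 on the opposite strand, where reads of the pair cannot be told apart. Col20a1 went from 57.9 ± 7.37 to 40.3 ± 9.22 (-0.53, adjusted p = 0.0227), a call lost without 2-month library 2 (0.0544), 2-month library 3 (0.0905), 22-month library 2 (0.0971) or 22-month library 3 (0.0775). Its call at 22 against 18 months (adjusted p = 0.0496) was lost without 2-month library 1 (0.0532), 2-month library 2 (0.0621), 6-month library 1 (0.0527), 6-month library 2 (0.064), 6-month library 3 (0.0618), 18-month library 1 (0.137), 18-month library 2 (0.0909), 18-month library 3 (0.0973), 22-month library 2 (0.172) or 22-month library 3 (0.142). With the trends removed its differences were -0.48 (adjusted p = 0.0634) at 22 against 2 months and -0.43 (adjusted p = 0.141) at 22 against 18 months. DESeq2 gave adjusted p of 0.0848 and 0.138 for these. The call at 22 against 18 months was also lost in edgeR (0.0554), with quantile normalization (0.0564) and with no filter (0.088). Col19a1, a gene of the same fibril-associated class, fell by 0.49 between 18 and 22 months (adjusted p = 0.0221), lost without 18-month library 3 (0.118), 22-month library 1 (0.067) or 22-month library 3 (0.0542) and at -0.37 (adjusted p = 0.0749) with the trends removed.

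Type VI collagen forms beaded filaments near basement membranes. Col6a1 and Col6a2, the most abundant of its genes per kilobase, were not called in any comparison, and Col6a1 stood at 2073 ± 222 at 2 months and 2231 ± 35.7 at 22 months. Col6a3 had 15.4, 11 and 12.9 at 2 months, 11.2, 16.3 and 16.7 at 6 months, 23, 34.8 and 31.6 at 18 months and 20.9, 35.3 and 18.6 at 22 months. All 6 libraries of the older ages were above all 6 of the younger ages. The older against younger log2 difference was 0.90 ± 0.20 (SE, adjusted p = 0.00429), and 1.04 (adjusted p = 0.0192) without the 22-month libraries. Its call at 22 against 2 months (0.83, adjusted p = 0.0288) was lost without 2-month library 2 (0.102), 2-month library 3 (0.0587) or 22-month library 2 (0.155). That call was also lost in DESeq2 (0.0898) and with no filter (0.0533). Col6a5 had 231, 193 and 195 at 2 months, 225, 322 and 375 at 6 months, 276, 336 and 352 at 18 months and 271, 237 and 320.0 at 22 months. It was called at 22 against 2 months (0.41, adjusted p = 0.0462), and the call was lost without 2-month library 2 (0.137), 2-month library 3 (0.113), 6-month library 2 (0.0514), 18-month library 2 (0.0513), 22-month library 1 (0.0771) or 22-month library 3 (0.194). The call was also lost in edgeR (0.0576), with quantile normalization (0.0578), with no filter (0.0703) and with no intensity trend (0.111). With length and GC trends removed the difference was 0.76 (adjusted p = 0.00104). Means of Col6a5 were 308 at 6 months, 321 at 18 months and 276 at 22 months. Its difference at 6 against 2 months was 0.55 (adjusted p = 0.0954 in limma and 0.0206 in DESeq2).

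Col6a4, a type VI chain gene, varied widely within an age. It had 264, 90.8 and 111 at 2 months, 181, 175 and 148 at 6 months, 109, 293 and 248 at 18 months and 78.2, 35.3 and 101 at 22 months, with 1 high library at 2 months and 2 at 18 months. The 22-month libraries were below all 6-month and 18-month libraries and overlapped 2 months. It was called lower at 22 against 18 months (-1.59, adjusted p = 0.0108), lost without 18-month library 3 (0.0597) or 22-month library 2 (0.0609). At 22 against 2 months (-1.07, adjusted p = 0.0434) the call was lost without 2-month library 1 (0.248), 6-month library 3 (0.0513) or 22-month library 2 (0.236). That call was also lost with length and GC trends removed (-0.84, adjusted p = 0.14), in edgeR (adjusted p = 0.0701) and DESeq2 (0.105), with no filter (0.0724) and with no intensity trend (0.125), and the call at 22 against 18 months with no intensity trend (0.0618). Col17a1, a hemidesmosome collagen gene, was called in older against younger ages (0.43, adjusted p = 0.0283), lost without 2-month library 2 (0.072), 6-month library 2 (0.0634), 6-month library 3 (0.0573), 18-month library 3 (0.0646) or 22-month library 2 (0.0673). The Col17a1 call was also lost in DESeq2 (0.128) and with no filter (0.0585). Col9a1, under the filter, had 7.13, 4.59 and 3.23 at 2 months, 7.13, 4.06 and 6.15 at 6 months, 9.36, 9.72 and 11.5 at 18 months and 9.13, 8.81 and 8.29 at 22 months. All 6 libraries of the older ages were above all 6 of the younger ages, and in the fit with no filter its older against younger difference was 0.75 (adjusted p = 0.0398).

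**Figure D5:**
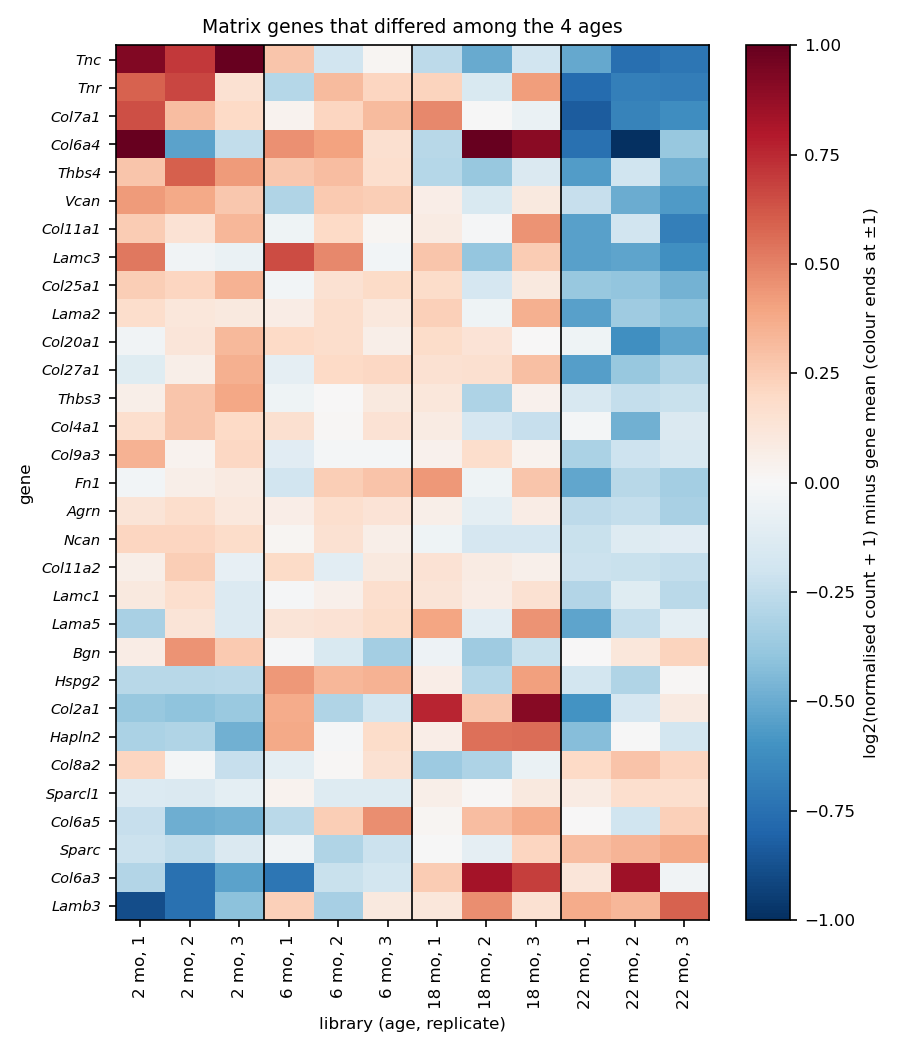
Log2(normalised count + 1) minus the gene's mean over 12 libraries (colour, ends at ±1) for the 31 matrix genes that differed among the 4 ages by the F test (rows) in each library (columns, by age and replicate). Genes are ordered by their difference between 22 and 2 months, from Tnc, red at 2 months and blue at 22 months, to Lamb3, which runs the other way.

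Genes whose products make, cut and bind matrix proteins moved in both directions. Of the tested genes of these 4 lists, 0 were called by limma at 6 against 2 months or at 18 against 6 months, where 0.926% and 0.153% of all tested genes were. Calls of these list genes, and of the cell type markers, come from the main limma fit alone. They were not followed through the fits with length and GC trends removed or with a library left out. Of 21 tested collagen synthesis and assembly genes, 7 fell (33.3%) and 1 rose (4.76%) in older against younger ages, where 12.1% of all tested genes were lower and 11.8% higher. Those that fell included Pxdn, whose product crosslinks type IV collagen (-0.29, adjusted p = 0.000229), and the prolyl hydroxylase subunit genes P4ha1 (-0.21) and P4ha2 (-0.35). The lysyl hydroxylase genes Plod1 (-0.25) and Plod2 (-0.42), the procollagen protease gene Adamts2 (-0.44) and Serpinh1, the gene of the collagen chaperone HSP47 (-0.29), made up the rest, with adjusted p of 0.00457 to 0.0447. Pcolce2, an enhancer of procollagen cleavage, was higher (0.52, adjusted p = 0.0214). Serpinh1 stood at 189 ± 13.2 at 6 months, 131 ± 17.5 at 18 months and 184 ± 35.2 at 22 months, and rose by 0.48 from 18 to 22 months (adjusted p = 0.0155). P4hb, the other prolyl hydroxylase subunit, rose by 0.17 between 2 and 22 months (adjusted p = 0.036), and 3 of the 21 fell (14.3%, beside 17.2% of all tested genes).

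Of 21 tested matrix proteases and inhibitors, 3 rose and 3 fell between 2 and 22 months, 14.3% each way, which is below the 18.4% higher and 17.2% lower of all tested genes. Timp2, a metalloprotease inhibitor gene, went from 2808 ± 40.1 to 3719 ± 83 (0.41, adjusted p = 1.37e-05) and Timp3 from 1495 ± 120.5 to 1764 ± 37.6 (0.24, adjusted p = 0.00484), and Mmp11 also rose (0.92, adjusted p = 0.00688). Adamts4, an aggrecanase gene that oligodendrocytes express, fell from 440.4 ± 116 to 231 ± 28.3 (-0.90, adjusted p = 0.00028), with Mmp16 (-0.43) and Adamts20 (-0.34). At 22 against 18 months 5 of the 21 rose, namely Mmp14, Mmp15, Mmp17, Mmp24 and Timp2, by 0.14 to 0.43, and 3 fell, beside 8.63% higher and 10.2% lower over all tested genes.

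Of 28 tested matrix receptors, 8 fell (28.6%) and 2 rose (7.14%) between 2 and 22 months, beside 17.2% and 18.4% of all tested genes. Ptprz1, a receptor of chondroitin sulfate proteoglycans and tenascins on glial progenitors, went from 3006 ± 85 to 2176 ± 113 (-0.47, adjusted p = 9.38e-05). The others that fell were Dag1, the dystroglycan gene whose product binds laminin and agrin (-0.31), Ptprs (-0.26), Cd47 (-0.24) and the integrin genes Itga1 (-0.59), Itga9 (-0.29), Itga10 (-0.83) and Itgb8 (-0.74). Itgb5 rose from 441 ± 21.6 to 666 ± 36.8 (0.59, adjusted p = 1.42e-05), and Sdc4 by 0.32. Itga5 (higher) and Itgb4 (lower) were called at 22 against 18 months, and Itgav (higher) in older against younger ages. Of 6 tested hyaluronan genes, 3 fell between 2 and 22 months (17.2% of all tested genes did): Has3, a hyaluronan synthase gene (-0.94), Tmem2, a hyaluronidase gene (-0.70), and Hmmr (-1.32), whose product is also a spindle protein of dividing cells.

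Markers of several cell types of the SVZ moved with age beside the matrix genes. The marker counts between 2 and 22 months stand beside 17.2% lower and 18.4% higher over all tested genes. Genes of neuroblasts (Dcx, 463 to 1189.6 normalised counts), of astrocytes or quiescent stem cells (Gfap, 1386 to 3297) and of ependyma (Foxj1, 348 to 603) were present in all libraries. The summed level of 10 activated stem cell and progenitor markers was 2735 to 2839 at 2 months, 1545 to 2217 at 6 months, 1336 to 1491 at 18 months and 1225 to 1611 at 22 months, and 8 of the 10 fell between 2 and 22 months. The mean levels of Tnc, Thbs4, Ncan and Vcan were also highest at 2 months, a trait shared by other matrix genes, among them Tnr, Agrn, Col25a1 and Col4a1. Of 7 oligodendrocyte precursor markers, 4 fell between 2 and 22 months, with sums of 3252 to 4016 and 2716 to 3270. Among 10 astrocyte and quiescent stem cell markers, 6 rose and 2 fell between 2 and 22 months, and their sum was 44327 to 47487 at 2 months and 45199 to 47016 at 22 months. Microglia markers rose for 5 of 8 genes, with sums of 3445 to 3536 and 4382 to 5096. Sparc rose over the same ages, as did the matrix genes Sparcl1 and Lamb3, and Col6a3 and Col6a5 with calls that several other fits lost.

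Endothelial markers summed to 3047 to 3467 at 2 months and 3362 to 3614 at 22 months. Between these ages 3 of 15 rose (20%, near the 18.4% of all tested genes) and 0 fell, where 17.2% of all tested genes did. Pericyte and smooth muscle markers summed to 2729 to 3015 and 2884 to 2975, and 3 of 13 rose and 3 fell, 23.1% each way. Of 15 fibroblast and meningeal markers 11 were tested, of which 1 rose and 1 fell, 9.09% each way. Of the 3 that define them, Dpt was at 0 to 1.47 normalised counts, under the limit of 3 reads in every library, Slc6a13 at 15.1 to 36.2 and Foxc1 at 43 to 64.2. Choroid plexus markers summed to 1028 to 2672 over the 12 libraries without an order by age. Of these, 2 of 10 rose between 2 and 22 months (20%, near the 18.4% of all tested genes). Ependymal markers rose for 4 of 7 genes (1248 to 1286 at 2 months, 1506 to 1733 at 22 months) and neuron markers for 6 of 7 (47923 to 52588 and 60074 to 62478). Of 9 neuroblast markers 6 fell between 2 and 22 months. Apart from Dpt, every defining marker of the 12 lists that the table holds had at least 15.1 normalised counts in every library. The part of these cell types in the matrix gene values was not tested.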

How the data were processed

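The 12 libraries are bulk RNA-seq of dissociated SVZ tissue, 3 at each of 4 ages. The deposited table holds the authors' normalised signal, read counts per gene divided by DESeq2 size factors, per the submitters' processing notes, which also name the mm10 genome; the aligner, counter, annotation, strandedness and versions are not given in the sources used here. A deposited log2 column of the authors' own comparison was not used. All values (100%, tolerance 1e-06) were whole multiples of 1 step per library, so whole reads were recovered, 6381390 to 15962517 per library; the precision of low genes is limited by this depth.

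log2(value + 1) was fitted in limma 3.58.1 (R 4.3.3) with all 12 libraries, an intensity trend, 5 contrasts and a moderated F test, over 15663 genes with at least 10 in 3 or more libraries, with Benjamini-Hochberg adjustment across these genes (threshold 0.05). The fit was tested on simulated data. Alternatives were other pseudocounts, filters, normalization, edgeR 4.0.16 and DESeq2 1.42.0 on the recovered reads, a replicate block, removal of length and GC trends (loess, span 0.5, 14853 genes; lengths from GENCODE M21), and leaving out each library, with 1 added after the data were seen, without the 22-month libraries. edgeR called 145 genes at 6 against 2 months, 38 at 18 against 6, 2857 at 22 against 18, 5238 at 22 against 2 and 3851 in older against younger ages. The genes named are every matrix gene called in any comparison or by the F test, a panel of 25 well-known matrix genes whatever their result, the 2 most abundant tested genes of each role, those under the filter, and the called genes of the enzyme, protease, receptor and hyaluronan lists; others named as not called, and Col9a1's values, were chosen after values were seen. Members and lists were chosen with earlier results of these data known. Coordinates and promoter windows are RefSeq's on GRCm38.p6. A tested gene is counted in the totals but its own values are not reported here.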

Additional observations from a re-analysis of the deposited data

How the results depend on the processing

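The counts of called matrix genes moved most with the length and GC correction, the libraries left out and the 22-month libraries. Shares called over all genes moved under these settings too, and stand beside the counts. Each count is out of 70 tested matrix genes, or 79 with no filter. At 6 against 2 months the count was 2 in limma, 0 with no filter, 0 with no intensity trend, 4 in DESeq2, 1 with length and GC trends removed, 1 without the 22-month libraries and 0 to 3 when 1 library was left out. The shares of all genes were, in that order, 0.926%, 0.429%, 0.109%, 1.55%, 0.714%, 0.926% and 0.249% to 1.70%. At 18 against 6 months it was 0, and 1 in edgeR, 1 in DESeq2, 1 with the trends removed, 1 without the 22-month libraries and 0 to 1 when 1 library was left out. The shares of all genes were 0.153%, 0.243%, 0.396%, 0.222%, 0.255% and 0.0511% to 0.428%. At 22 against 18 months it was 19, 10 with the trends removed and 11 to 22 when 1 library was left out, beside 18.9%, 11.1% and 7.56% to 21.2% of all genes. At 22 against 2 months it was 26, with 18 when the trends were removed and 19 to 27 when 1 library was left out, beside 35.7%, 22.5% and 26.6% to 36.9% of all genes. Older against younger ages gave 17, 6 without the 22-month libraries and 14 to 21 when 1 library was left out, beside 23.9%, 3.31% and 16.1% to 27.6% of all genes. The F test gave 31, 19 with the trends removed, 9 without the 22-month libraries and 21 to 31 when 1 library was left out. It called 31.5% of all tested genes in the main fit. Its share in the other fits, with the block fit below among them, was not taken. Whether its counts of matrix genes moved more than those of all genes therefore cannot be told. A single-gene result was counted as reversed where its sign changed and the main or the alternative fit called it. There were 2 such: Lama2 in older against younger ages was 0.061 (adjusted p = 0.782) without the 22-month libraries, and Ncan at 22 against 18 months was 0.17 (adjusted p = 0.0286) with the trends removed. The cause was not tested. Another 163 lost a call with the same sign, 47 gained one, and 4597 stayed called or stayed not called. Sign changes with no call in either fit are among the 4597. The fit with the replicate number as a block called 2 matrix genes at 6 against 2 months, 0 at 18 against 6, 18 at 22 against 18, 25 at 22 against 2, 17 in older against younger ages and 26 by the F test, with Col6a4 at 22 against 2 months at adjusted p = 0.0514 and Col20a1 at 22 against 18 months at 0.0671, but the numbers do not pair the libraries: 18 same-number correlations of deviations ran from -0.187 to 0.159, and 2 were over 0.1. Over all tested genes the block fit called 0.645%, 0.128%, 16.3%, 33.5% and 21.3% in the 5 comparisons, in the same order. Some calls were lost in fits not noted with their genes. With no intensity trend these were Col11a2, Lama5, Sparc and Vcan at 22 against 18 months. Tnc and Hspg2 at 6 against 2 months and Lamc3 in older against younger ages were lost with no intensity trend and with no filter. Lamc3 at 22 against 2 months was lost in DESeq2 (adjusted p = 0.0537). Depth limits the low genes, since 3 reads are 1.74 to 4.41 normalised counts.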

Other observations

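Col4a1 and Col4a2 code for chains that assemble in 1 molecule, so their ratio within a library was also taken, without a test. The log2 ratio of Col4a1 to Col4a2 averaged -0.41 ± 0.03 (SD, n = 3) in the 2-month libraries. It was -0.57 ± 0.09 in those of 6 months, -0.66 ± 0.12 in those of 18 months and -0.70 ± 0.40 in those of 22 months. The 22-month libraries ran from -1.15 to -0.37 and overlapped every other age. For Col6a1 to Col6a2 the mean was 3.12 ± 0.04 in 2-month, 3.22 ± 0.11 in 6-month, 3.15 ± 0.09 in 18-month and 3.26 ± 0.17 in 22-month libraries.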
